A study of Mus musculus with 12 samples.

Results

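The genes that load peptides onto MHC class I molecules were followed in the brain after experimental stroke. They were the 10 rows of the gene table with the symbols B2m, H2-D1, H2-K1, H2-T23, Tap1, Tap2, Tapbp, Nlrc5, Calr and Pdia3, out of 31208 genes in all. The series held 12 male C57BL/6 mice of 8 weeks. In 4 sham mice no ischemia was induced, and in the other 8 the left middle cerebral artery was blocked with a filament and the brain was taken at 6 h of ischemia. Of these 8, 4 had received vehicle (saline) and 4 lactate (D-lactate in the methods) into a cerebral ventricle on the day before. Whether the sham mice were injected is not given in the sources used here, so vehicle against sham compares ischemia plus any effect of the injection, lactate against sham adds lactate to that, and lactate against vehicle is the comparison that isolates lactate. RNA came from bulk brain tissue, in which more cells of a type and more RNA per cell cannot be told apart. Full-length cDNA was read on nanopores, with 6815920 to 10677224 counts in a mouse. The smallest level taken as detected, 3 reads, was worth 0.281 to 0.44 CPM (counts scaled to the total of the mouse) depending on the mouse. This floor reflects counting error alone, as reads were not tagged by molecule.

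MHC class I molecules show peptides from inside the cell to CD8 T cells and NK cells. Each is a heavy chain (H2-D1 and H2-K1 are the classical ones of this strain, H2-T23 a non-classical one) paired with the light chain beta-2-microglobulin, B2m. The transporter formed by Tap1 and Tap2 brings peptides into the endoplasmic reticulum (ER), where tapasin (Tapbp), calreticulin (Calr) and the disulphide isomerase ERp57 (Pdia3) hold the empty heavy chain until a peptide is bound. Calr and Pdia3 also serve the folding of many other glycoproteins. Nlrc5 is the transactivator that switches on class I genes together with the RFX, CREB and NF-Y factors. Neurons of the healthy brain are known for little class I at their surface, and microglia and endothelial cells for more.

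The promoters of H2-D1, H2-K1, B2m and Calr are printed because the first 3 share an arrangement of motifs and Calr has a motif that the others lack. Calr RNA was higher in lactate than in sham mice, and was not called between lactate and vehicle. RefSeq start sites on GRCm38.p6 gave windows of 250 bases before to 50 after the start for 8 of the 10 genes, with none for Tap2 and Nlrc5. The motifs searched on both strands were CCAAT (the NF-Y box), TGACG (the core of the cyclic AMP response element, CRE), GAAANNGAA (the core of the interferon-stimulated response element), TTCNNNGAA (the interferon-gamma activated site), GGGNNTTCC (NF-kappa B) and the ER stress response element, which is CCAAT and CCACG with 9 bases between them and so contains a CCAAT match. In H2-D1 and H2-K1 a GGGNNTTCC match was followed 70 bases on, start to start, by TGACG and a further 25 bases on by ATTGG, which is CCAAT read on the other strand. B2m had the same TGACG and ATTGG at 25 bases, with a GAAANNGAA match and no match to the exact letters GGGNNTTCC. Sites of the same kinds with other letters or spacing were not searched, so their absence from a window is not shown. The 200 bases before the start are printed 5′ to 3′ with these matches in capitals (in Calr, both ends of the ER stress response element, which lies reversed). H2-D1 is read from chr17:35262894-35263093 on the plus strand, H2-K1 from chr17:34000348-34000547 on the minus strand, B2m from chr2:122147487-122147686 on the plus strand and Calr from chr8:84846932-84847131 on the minus strand. GENCODE places the first base of H2-D1 further upstream than RefSeq does, so the stretch shown for it lies within the GENCODE gene.
H2-D1: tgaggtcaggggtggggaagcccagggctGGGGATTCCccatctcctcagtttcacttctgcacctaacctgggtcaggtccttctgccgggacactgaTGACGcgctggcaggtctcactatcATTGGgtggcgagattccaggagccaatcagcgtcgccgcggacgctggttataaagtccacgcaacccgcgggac
H2-K1: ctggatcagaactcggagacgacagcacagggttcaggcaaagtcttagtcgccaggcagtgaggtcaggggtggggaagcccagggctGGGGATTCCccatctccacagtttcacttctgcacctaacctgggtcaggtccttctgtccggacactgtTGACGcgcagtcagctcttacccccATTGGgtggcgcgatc
B2m: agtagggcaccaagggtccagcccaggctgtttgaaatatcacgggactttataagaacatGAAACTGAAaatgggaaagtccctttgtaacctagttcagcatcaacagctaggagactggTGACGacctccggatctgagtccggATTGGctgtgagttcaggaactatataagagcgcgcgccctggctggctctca
Calr: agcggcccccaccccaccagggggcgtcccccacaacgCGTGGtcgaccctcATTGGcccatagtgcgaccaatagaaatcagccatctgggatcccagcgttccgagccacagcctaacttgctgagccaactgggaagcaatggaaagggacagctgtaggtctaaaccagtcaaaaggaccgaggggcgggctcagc

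Over 139 aligned bases these stretches of H2-D1 and H2-K1 were 91.4% identical, so their shared motifs lie within shared sequence. Among all 32851 windows, 37.4% held CCAAT, 20.8% TGACG, 8.56% GAAANNGAA, 8.30% TTCNNNGAA, 5.82% GGGNNTTCC and 0.119% the ER stress response element. The pair of TGACG and ATTGG at exactly 25 bases, a spacing singled out after the windows had been read, stood in 31 windows (0.0944%) of 27 genes, among them H2-D1, H2-K1, B2m and the non-classical heavy chain H2-M3. H2-T23 held a reversed GAAANNGAA at position -123 and CCAAT at -52, counted from the start site. Pdia3 held CCAAT at -79 and -29 with TGACG between them at -37, Tap1 CCAAT at -222 and TGACG at -86, and Tapbp 2 reversed CCAAT. A match is a description of the letters and not a bound site.

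**Figure D1:**
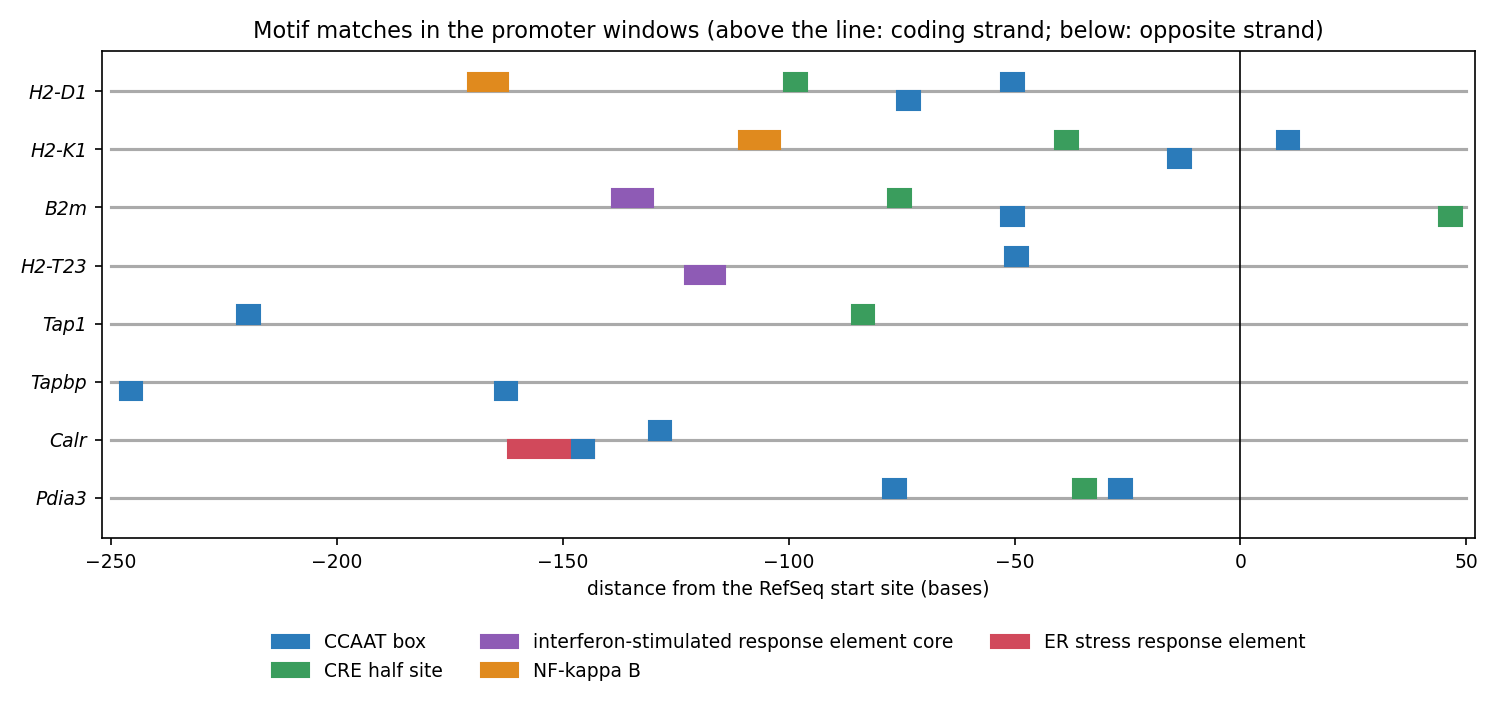
Positions of the motif matches in the promoter windows of 8 genes, in bases from the RefSeq start site (vertical line at 0). Blocks above a line lie on the coding strand and blocks below it on the opposite strand. H2-D1, H2-K1 and B2m share TGACG followed by a reversed CCAAT box at 25 bases, and Calr alone among the 8 holds the ER stress response element.

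In each comparison 8 of the 10 genes had at least 1 CPM in 4 or more of the 8 mice and were tested, and Tap1 and Nlrc5 were not. A gene was called where its unadjusted P value in edgeR's quasi-likelihood test was under 0.05 and its change at least 1.5-fold, and the P value printed with each change is the one adjusted over all genes tested. With vehicle, 1 of the 8 was called higher than in sham mice, H2-D1, against 6.50% of the 17019 genes tested, and none lower (3.01%). No member had an adjusted P under 0.05 there, as 1.29% of all genes did in the upward direction. With lactate, 4 of the 8 were called higher than in sham mice, H2-D1, H2-K1, Calr and Pdia3, against 11.9% of 17262 genes, and none lower (5.65%). All 4 also had an adjusted P under 0.05, as did H2-T23, which makes 5 of 8 against 8.76% of all genes, although H2-T23 did not keep that P in every fit. The same 5 had no overlap in CPM between lactate and sham mice, with every lactate mouse above every sham mouse, as 10.4% of all genes did, and none lay wholly below (8.74% of all genes). No member was without overlap between vehicle and sham (4.14% of all genes lay wholly above and 4.89% wholly below). The median log2 fold change of the 8 was 0.38 with vehicle and 0.56 with lactate, beside 0.00 and -0.03 for all genes. Both comparisons use the same 4 sham mice. Between lactate and vehicle no member was called (3.76% of 17419 genes were called higher and 2.47% lower), by edgeR's quasi-likelihood and exact tests, DESeq2 or limma voom. Of the 8, 1, Pdia3, had an unadjusted P under 0.05 in the quasi-likelihood test, beside 8.84% of all genes. The median there was 0.25 beside -0.03 for all genes. The labels number the samples as replicates, and where nothing more is said the P values measure the spread between these samples.

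**Figure D2:**
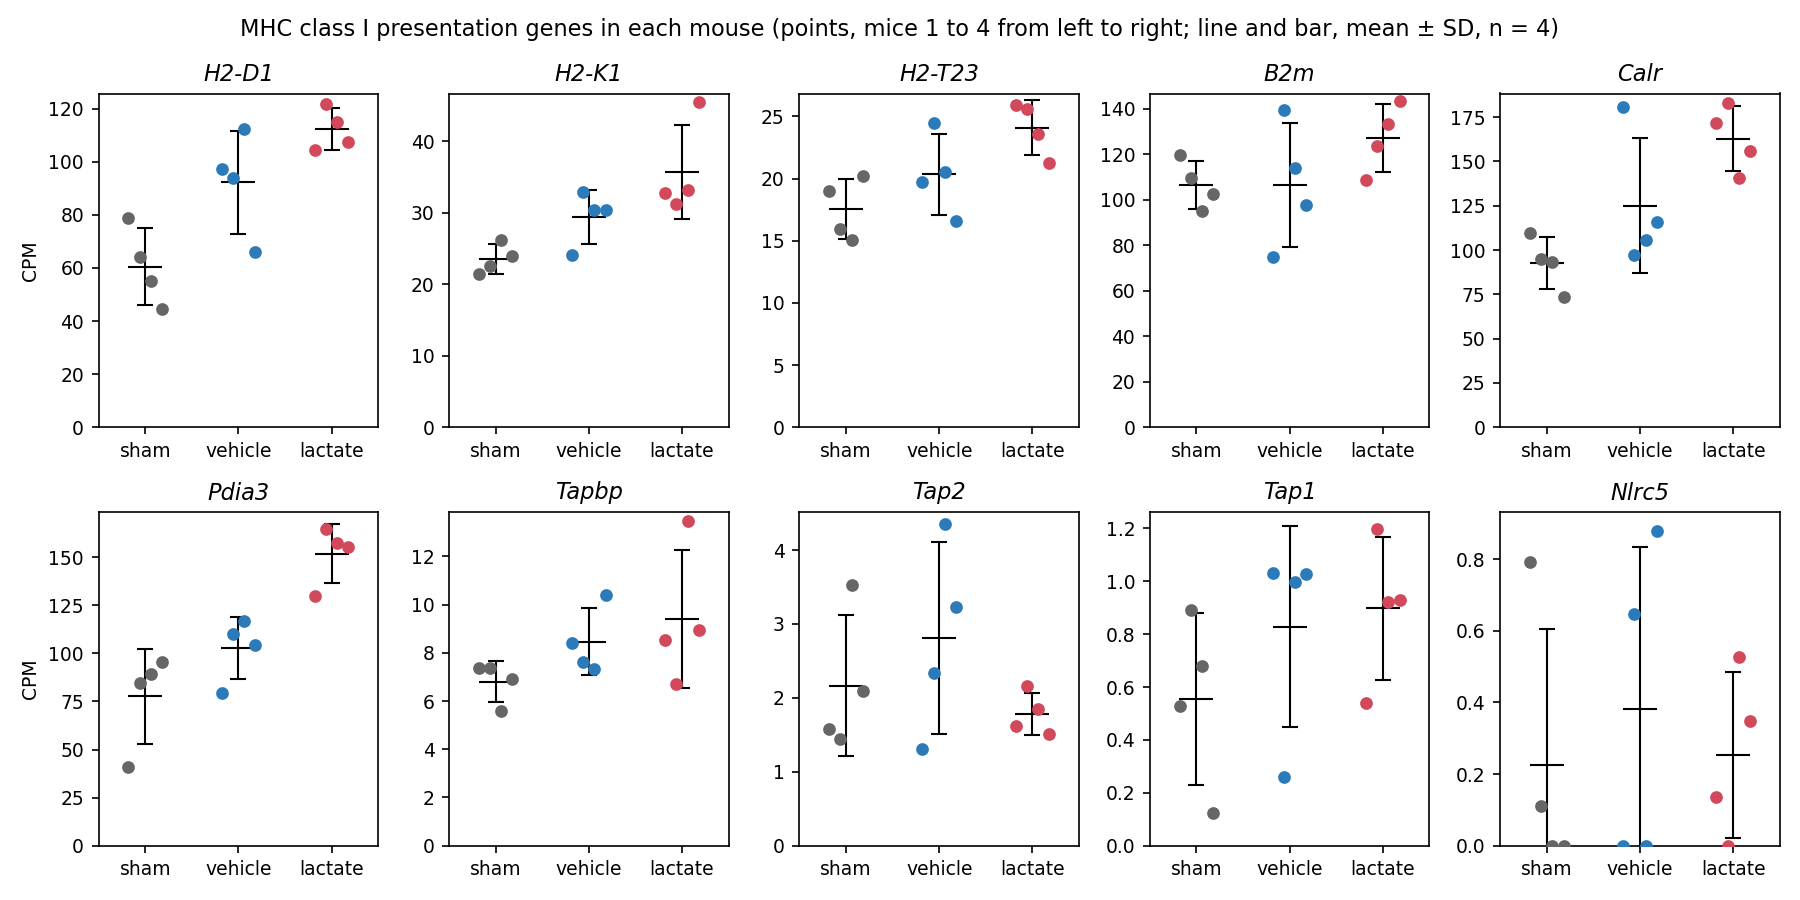
CPM of the 10 genes in each mouse, on linear axes from 0, with mice 1 to 4 from left to right in each group and the mean ± SD (n = 4) in black. H2-D1, H2-K1, H2-T23, Calr and Pdia3 in the lactate mice lie above every sham mouse, as 10.4% of all tested genes do, and Tap1 and Nlrc5 lie near the floor of detection.

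H2-D1, a classical heavy chain, had the clearest change of the heavy chains. Its level in sham mice 1 to 4 was 78.7, 64.0, 55.0 and 44.5 CPM. In the vehicle mice it was 97.2, 93.8, 112 and 65.9 CPM, and in the lactate mice 104, 122, 115 and 107 CPM. All 4 lactate mice lay above the highest sham mouse, whereas 3 of 4 vehicle mice did, so that vehicle and sham overlapped in vehicle mouse 4. The means were 60.6 ± 14.5, 92.3 ± 19.3 and 112 ± 7.89 CPM (SD, n = 4 each). H2-D1 rose 1.56-fold with vehicle (log2 fold change 0.65, SE 0.20, adjusted P = 0.164). That call fell under the 1.5-fold limit without sham mouse 4 (log2 0.53) or without vehicle mouse 3 (0.55). With lactate it rose 1.90-fold over sham (log2 0.92, SE 0.15, adjusted P = 0.00178), and it kept its call without any one mouse. Between lactate and vehicle the log2 difference was 0.26 (SE 0.16, adjusted P = 0.658), within the spread of the mice.

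H2-K1, the other classical heavy chain, followed with smaller differences. Sham mice 1 to 4 had 21.4, 22.5, 26.2 and 23.9 CPM, vehicle mice 24.1, 32.9, 30.4 and 30.4 CPM, and lactate mice 32.7, 31.3, 33.1 and 45.5 CPM. The lactate mice all lay above the sham mice, and lactate mouse 4 stood well above the other 3. H2-K1 rose 1.55-fold with lactate against sham (log2 0.63, SE 0.15, adjusted P = 0.0146). This lay just over the fold limit, and it fell under it without lactate mouse 4 (log2 0.50), without sham mouse 1 (0.57) or with no filter on low counts (0.58). With vehicle the log2 difference from sham was 0.36 (SE 0.16, adjusted P = 0.336), under the fold limit, and lactate differed from vehicle by 0.26 (SE 0.17, adjusted P = 0.687).

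H2-T23 encodes Qa-1, the non-classical chain that binds CD94/NKG2 receptors. It had 19.0, 15.9, 15.1 and 20.2 CPM in the sham mice, 19.8, 24.5, 20.5 and 16.6 CPM in the vehicle mice and 25.96, 25.6, 23.6 and 21.2 CPM in the lactate mice. Lactate and sham did not overlap, and vehicle overlapped both. H2-T23 was 1.40-fold higher with lactate than in sham mice (log2 0.49, SE 0.15, adjusted P = 0.0444), short of the fold limit. The adjusted P was 0.0598 with a replicate block and 0.0706 with all 12 mice in one edgeR fit, 0.0238 to 0.0493 by DESeq2, edgeR's exact test and limma voom, and 0.0392 to 0.132 with one mouse left out, under 0.05 only without sham mouse 4 or lactate mouse 4. The log2 difference was 0.25 (SE 0.18, adjusted P = 0.585) for vehicle against sham and 0.22 (SE 0.17, adjusted P = 0.728) for lactate against vehicle.

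B2m, the light chain that every one of these heavy chains needs, differed least of the 8 tested members between vehicle and sham mice. Sham mice had 120, 110, 94.9 and 103 CPM, vehicle mice 75.0, 140, 114 and 97.9 CPM, and lactate mice 109, 124, 133 and 143 CPM. The vehicle mice spanned the range of the sham mice on both sides. The log2 difference from sham was 0.03 (SE 0.18, adjusted P = 0.961) with vehicle and 0.28 (SE 0.11, adjusted P = 0.117) with lactate, 1.22-fold and not called. Between lactate and vehicle it was 0.24 (SE 0.18, adjusted P = 0.726).

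Since scaling between libraries cancels in a ratio taken within a mouse, H2-D1 was also set against B2m read by read. There were 0.434 to 0.658 H2-D1 reads per B2m read in the sham mice, 0.672 to 1.30 in the vehicle mice and 0.749 to 0.985 in the lactate mice. Neither ischemic group overlapped the sham mice in this ratio, while the ischemic groups overlapped each other. The margin was narrow, with 0.658 in sham mouse 1 against 0.672 and 0.673 in vehicle mice 2 and 4. The highest ratio, 1.30, belonged to vehicle mouse 1, which had the lowest B2m level of all mice (75.0 CPM). How often ratios of other genes separate the groups in this way was not counted. H2-K1 reads per B2m read ranged from 0.178 to 0.276 in sham, from 0.236 to 0.321 in vehicle and from 0.249 to 0.317 in lactate mice, with overlap between all groups. These ratios are given as a description and were not tested.

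**Figure D3:**
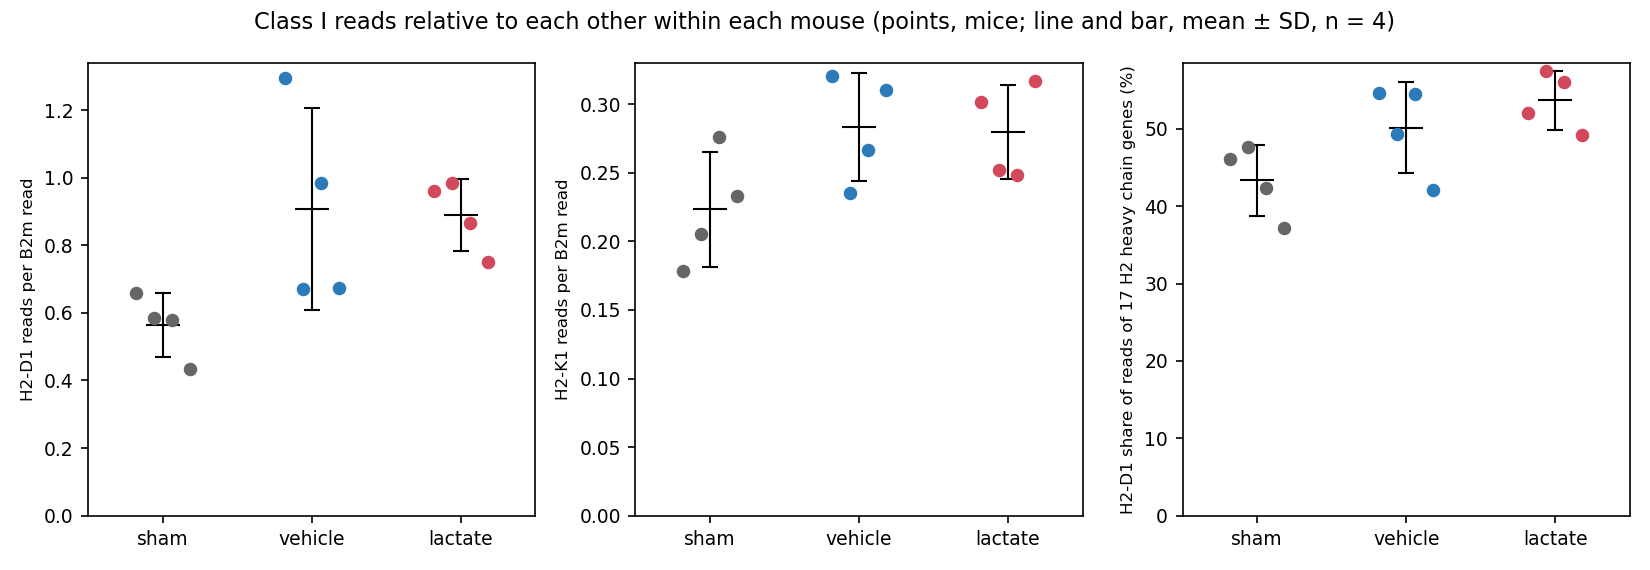
Reads of H2-D1 and of H2-K1 per read of B2m, and the share of H2-D1 in the reads of 17 H2 heavy chain genes (in %), for each mouse with the mean ± SD (n = 4). The H2-D1 to B2m ratio lies between 0.434 and 0.658 in the sham mice and at or above 0.672 in every ischemic mouse, a narrow margin that was not set against ratios of other genes.

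The heavy chain genes resemble one another, and reads could be assigned to the wrong copy. The longest protein-coding transcripts of GENCODE release M21 were 90.7% identical between H2-D1 and H2-K1 over 1472 aligned bases, 84.1% between H2-D1 and H2-T23, and 84.9% between H2-K1 and H2-T23. H2-Q4 was 91.7% identical to H2-D1 and 92.2% to H2-K1 over the aligned part. The levels of single heavy chains are therefore uncertain. H2-D1 made up 37.3% to 47.6% of the reads of the 17 H2 heavy chain genes in sham mice, 42.2% to 54.7% in vehicle mice and 49.2% to 57.5% in lactate mice. The reads of the 14 genes other than H2-D1, H2-K1 and H2-T23 summed to 30.8 to 51.4 CPM in sham, 36.8 to 43.4 CPM in vehicle and 33.2 to 44.4 CPM in lactate mice, so the 3 groups overlapped.

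Calr is a calcium-binding lectin chaperone of the ER. It had 110, 95.0, 93.3 and 73.8 CPM in the sham mice, 181, 97.3, 106 and 116 CPM in the vehicle mice, and 172, 183, 141 and 156 CPM in the lactate mice. All lactate mice lay above all sham mice. Vehicle mouse 1 reached the level of the lactate mice, and the other 3 vehicle mice lay within or just above the sham range. Calr rose 1.79-fold with lactate against sham (log2 0.84, SE 0.13, adjusted P = 0.00119), and it kept that call without any one mouse. With vehicle the log2 difference was 0.47 (SE 0.20, adjusted P = 0.317), 1.38-fold and not called. Lactate and vehicle differed by 0.36 (SE 0.19, adjusted P = 0.624), which became 0.60 and passed the limits without vehicle mouse 1. That mouse also had the highest summed level of 9 neuronal markers of the 12 mice, 5473 CPM against a vehicle median of 3815 CPM, and the part of this in its Calr level was not tested.

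Pdia3, the disulphide isomerase, lay higher in every lactate mouse than in any sham or vehicle mouse. Sham mice had 40.9, 84.6, 89.2 and 95.7 CPM, vehicle mice 79.4, 110, 117 and 105 CPM, and lactate mice 130, 165, 157 and 156 CPM. Sham mouse 1 stood far under the other sham mice. Pdia3 was the 1 of the 8 tested members whose lactate and vehicle groups did not overlap, as was the case for 2.99% of all genes in that direction (1.83% in the other). Pdia3 rose 1.99-fold with lactate against sham (log2 0.99, SE 0.21, adjusted P = 0.00908), and the log2 value was 0.77 without sham mouse 1, still called. Its value with lactate was the highest of the 8 with all mice, whereas without sham mouse 1 those of H2-D1 (1.06) and Calr (0.92) were higher. With vehicle the log2 difference was 0.43 (SE 0.24, adjusted P = 0.453), and 0.21 without sham mouse 1. Lactate against vehicle gave 1.46-fold (log2 0.55, SE 0.14, adjusted P = 0.460), just under the fold limit. It passed the limits without vehicle mouse 3 (log2 0.61), without lactate mouse 1 (0.61) or when genes without an Ensembl identifier were left out (0.59).

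Tapbp and the transporter genes had few reads, and neither Tapbp nor Tap2 was called in any comparison with all mice included. Tapbp, the bridge between transporter and heavy chain, had 7.39, 7.36, 5.57 and 6.91 CPM in sham, 8.43, 7.64, 7.35 and 10.4 CPM in vehicle and 8.52, 6.71, 13.5 and 8.93 CPM in lactate mice. All groups overlapped, although 3 of 4 mice in each ischemic group lay above every sham mouse. The log2 difference of Tapbp from sham was 0.34 (SE 0.21, adjusted P = 0.505) with vehicle and 0.49 (SE 0.23, adjusted P = 0.183) with lactate. The value with lactate rested on single mice, being 0.63 and called without lactate mouse 2 and 0.28 without lactate mouse 3. Zbtb22 overlaps 3422 bases of Tapbp on the same strand in the annotation and had 460 reads over the 12 mice, so reads there may be shared.

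Tap2 had 1.58, 1.45, 3.53 and 2.10 CPM in sham, 1.31, 2.33, 4.36 and 3.23 CPM in vehicle and 1.62, 2.16, 1.85 and 1.51 CPM in lactate mice, from 12 to 35 reads a mouse. The vehicle mice were the most scattered. The log2 difference was 0.40 (SE 0.41, adjusted P = 0.730) for vehicle against sham, -0.23 (SE 0.34, adjusted P = 0.709) for lactate against sham and -0.65 (SE 0.37, adjusted P = 0.640) for lactate against vehicle. Tap2 was thus the tested member whose fitted value was below 0 with lactate, and none of the 3 differences exceeded the spread of the mice. Without vehicle mouse 1 the value against vehicle was -0.90 and passed the limits.

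Tap1 was counted with 4, 8, 5 and 1 reads in the sham mice, 11, 2, 8 and 7 in the vehicle mice and 4, 10, 7 and 8 in the lactate mice. Fitted with no filter on low counts, its log2 difference was 0.59 (SE 0.59) with vehicle and 0.65 (SE 0.53) with lactate against sham, so that no difference was detectable at this depth. Nlrc5 had 6, 1, 0 and 0 reads in sham, 0, 5, 0 and 6 in vehicle and 1, 0, 4 and 3 in lactate mice. No Nlrc5 read was found in 5 of the 12 mice, and its level was not resolved in any group.

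**Figure D4:**
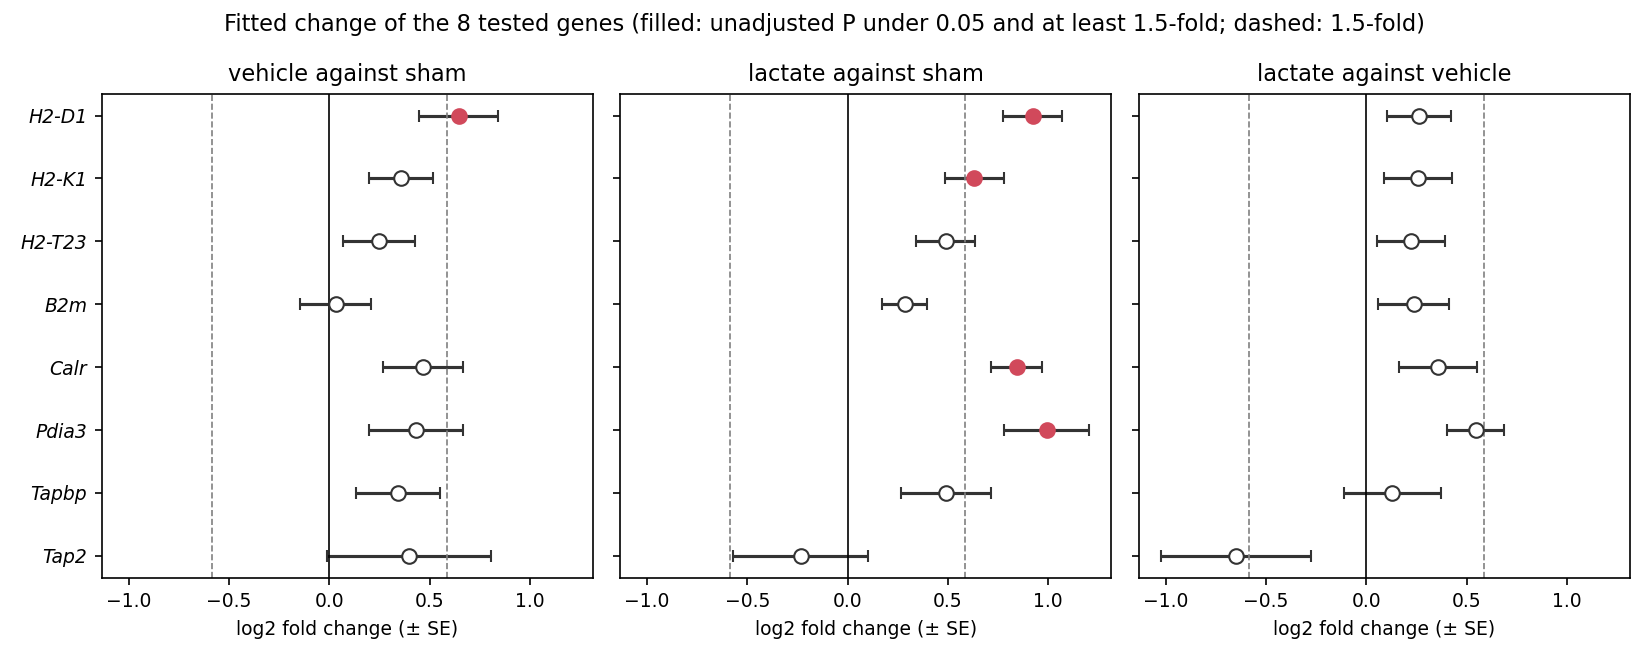
Fitted log2 fold change with its standard error for the 8 tested genes in the 3 comparisons, with filled points for the genes called and dashed lines at 1.5-fold. With lactate against sham H2-D1, H2-K1, Calr and Pdia3 are filled, with vehicle H2-D1 alone, and none is filled between lactate and vehicle.

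All 10 genes are protein-coding and lie on 3 chromosomes of GRCm38. The heavy chains, Tapbp and the transporter genes lie in the MHC on chromosome 17, with Tapbp at chr17:33915899-33929292, H2-K1 at chr17:33996017-34000347, Tap1 at chr17:34187553-34197225, Tap2 at chr17:34203527-34216321, H2-D1 at chr17:35262730-35267499 and H2-T23 at chr17:36029773-36032855. Pdia3 (chr2:121413775-121438687) and B2m (chr2:122147686-122153083) are neighbours at some distance on chromosome 2. Calr (chr8:84841850-84846934) and Nlrc5 (chr8:94434356-94527272) lie on chromosome 8. Patl2 runs over the whole of B2m on the opposite strand with 2 reads in the 12 mice, and Psmb9 overlaps 212 bases of Tap1 on the opposite strand with 112 reads. Whether counting used strand is not given in the sources used here.

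The other class I genes showed no shared direction. Of 22 further heavy chains and class I-like chains, 20 were in the table and 10 were tested with lactate against sham, where none was called (by edgeR's tests, DESeq2 or limma voom, with 1 at an unadjusted P under 0.05). With vehicle, 1 of 11 was called higher (6.50% of all genes) and 2 lower (3.01%), and the number called ranged from 0 to 3 with one mouse left out. H2-Q7 rose from 0.526 ± 0.567 to 1.70 ± 1.02 CPM (SD, n = 4), log2 1.62 (SE 0.74, adjusted P = 0.358). H2-T24 fell by 0.79 on the log2 scale (SE 0.34, adjusted P = 0.319) and Fcgrt, the neonatal Fc receptor, fell by 0.59 (SE 0.23, adjusted P = 0.274), neither with an adjusted P under 0.05. With one mouse left out, the H2-T24 call was lost in 5 of 8 fits and the Fcgrt call in 4. The H2-Q7 call was lost in 3 of these fits, H2-Q7 was not tested in 4, and it was called in 1. H2-T24 also lost its call with no filter on low counts, by DESeq2, by edgeR's exact test and with a replicate block, H2-Q7 with Ensembl genes only, in the joint fit and with a replicate block, and Fcgrt with Ensembl genes only and at a mean CPM of at least 5. The most read of the other H2 genes, H2-T22, had 13.8 ± 2.91 CPM in sham and 14.4 ± 3.63 CPM in lactate mice.

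Among 25 genes of peptide supply and loading, which hold the proteasome, its activators, the trimming peptidases and the glucosidases, 1 was called in each comparison. Hspa5 (BiP), the general ER chaperone, rose with vehicle (log2 1.09, SE 0.21, adjusted P = 0.0227) and with lactate (1.40, SE 0.17, adjusted P = 0.000190). Its mean was 127 ± 30.4 CPM in sham, 263 ± 65.6 CPM in vehicle and 327 ± 57.1 CPM in lactate mice. Psmb8, an immunoproteasome subunit encoded beside the transporter genes, was higher with lactate than with vehicle, 4.07 ± 0.880 against 2.33 ± 0.786 CPM (SD, n = 4). The log2 difference was 0.79 (SE 0.31, adjusted P = 0.524), and the call was lost in 5 of 8 fits with one mouse left out (vehicle mouse 1, 3 or 4, or lactate mouse 3 or 4). Psmb8 was not tested at a mean CPM of at least 5. Against sham its log2 difference with lactate was 0.23 (SE 0.24, adjusted P = 0.598). Canx, the membrane-bound partner of Calr, gave 0.36 (SE 0.12, adjusted P = 0.0706) with lactate and was not called.

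Of 32 regulators of class I transcription, 28 were tested. With vehicle 1 was called higher (6.50% of all genes), and with lactate 2 higher (11.9%) and 2 lower (5.65%) than in sham mice, so that the share of regulators called was no higher than among all genes with vehicle or upward with lactate. Stat3, a cytokine-activated factor, rose with vehicle (log2 0.91, SE 0.23, adjusted P = 0.0858) and with lactate (0.87, SE 0.17, adjusted P = 0.00564). Irf7, an interferon-induced factor, rose with lactate from 1.62 ± 0.784 to 5.11 ± 1.70 CPM (SD, n = 4; log2 1.66, SE 0.37, adjusted P = 0.0111) and was also called against vehicle (1.04, SE 0.43, adjusted P = 0.536), a call lost in 5 of 8 fits with one mouse left out. Rfx5, a subunit of the RFX complex that works with Nlrc5, fell with lactate from 27.4 ± 0.964 to 17.5 ± 1.52 CPM (SD, n = 4; log2 -0.61, SE 0.13, adjusted P = 0.00854), a call lost to the fold limit without lactate mouse 4 and with Ensembl genes only. Irf1, another interferon-induced factor, fell by 0.64 (SE 0.27, adjusted P = 0.152), and kept that call in 2 of 8 fits with one mouse left out and not by DESeq2.

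Most of the receptors listed for class I had few reads. Of 15 receptor genes 14 were in the table, 8 of these never exceeded 3 reads in any mouse, and 3 were tested, Lilrb4a, Lair1 and Sirpa. Sirpa, a receptor for CD47 rather than for class I, made up nearly all of the list, with 35145, 36630 and 35495 reads in the sham, vehicle and lactate groups. Lair1, a collagen receptor, had 155, 157 and 183 reads, and neither was called in any comparison. Lilrb4a, an inhibitory receptor of myeloid cells, had 1 read in the 4 sham mice, 60 in the 4 vehicle mice and 103 in the 4 lactate mice. Against sham it passed the filter only through the ischemic mice, so a call there could only be upward. It was called higher in both ischemic groups, and was not tested in the 4 fits that left out an ischemic mouse in either comparison. It was also called between lactate and vehicle (log2 0.81, SE 0.36, adjusted P = 0.554), a call lost by DESeq2, with a replicate block and in 5 of 8 fits with one mouse left out. Cd8a, the co-receptor of T cells for class I, had 24, 9 and 15 reads per group, and Klrd1, the CD94 chain that meets Qa-1, had none.

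Calr and Pdia3 were read beside 31 ER folding factors and calcium-binding chaperones, of which 30 were tested and Hspa5, Canx and Uggt1 were also among the genes of peptide supply. With lactate 14 of the 30 were called higher than in sham mice and none lower (11.9% and 5.65% of all genes), and 12 of these 14 had an adjusted P under 0.05. With vehicle 7 were called higher and none lower (6.50% and 3.01% of all genes), of which 1 had an adjusted P under 0.05, and 4 were called without sham mouse 2. The median log2 fold change of the 30 was 0.51 with lactate and 0.32 with vehicle, beside -0.03 and 0.00 for all genes. Sdf2l1, a cofactor of the ER chaperones, rose from 4.10 CPM in sham to 17.5 CPM in lactate mice (log2 2.12, SE 0.23, adjusted P = 0.000103). Manf, a secreted ER stress protein, rose from 26.5 to 63.2 CPM (log2 1.29, SE 0.16, adjusted P = 0.000273). Pdia6, a sister isomerase of Pdia3, rose from 40.6 to 82.3 CPM (log2 1.05, SE 0.12, adjusted P = 9.51e-05), and Hsp90b1 (GRP94) from 139 to 250 CPM (log2 0.87, SE 0.11, adjusted P = 0.000218). The fitted values of Pdia3 and Calr with lactate, 0.99 and 0.84, thus lay within those of the called factors.

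Between lactate and vehicle 4 of the 30 were called higher and none lower (3.76% and 2.47% of all genes). They were Pdia4 (log2 1.09, SE 0.26, adjusted P = 0.416), Sdf2l1 (1.13, SE 0.25, adjusted P = 0.374), Manf (0.79, SE 0.19, adjusted P = 0.434) and Pdia6 (0.69, SE 0.15, adjusted P = 0.371). None of these 4 had an adjusted P under 0.05, as was true of every gene called higher in that comparison. The ER stress response element, present in the promoter of Calr, stood in 39 windows of 37 genes in all. Of the 18 of these tested with lactate against sham 7 were called higher and none lower (11.9% and 5.65% of all genes), and with vehicle 3 of 17 higher and 1 lower (6.50% and 3.01%). The 7 were Calr, Creld2, Derl3, Dnajc3, Hsp90b1, Hspa5 and Pdia6. Of the 27 genes with TGACG and ATTGG at 25 bases, 19 were tested with lactate against sham, 2 were called higher (H2-D1 and H2-K1) and 1 lower (Nrarp). B2m and H2-M3, a further class I heavy chain, hold the same pair and were not called, and H2-M3 gave a log2 difference of 0.01 (SE 0.31, adjusted P = 0.992). No test was made of either group of promoters.

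**Figure D5:**
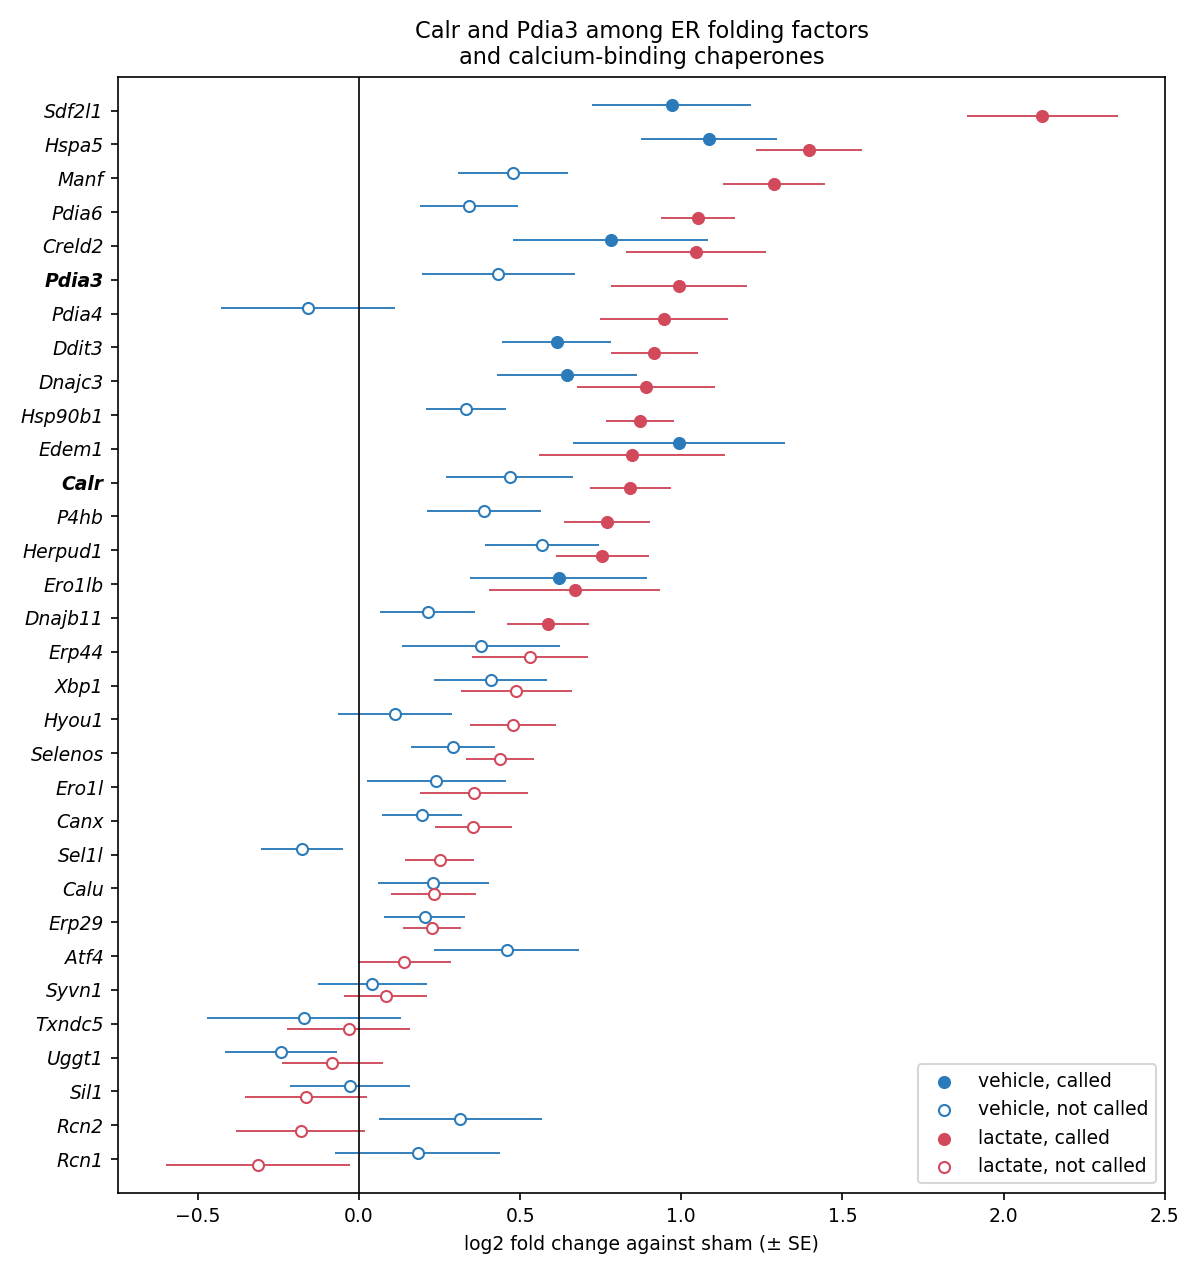
Fitted log2 fold change against sham with its standard error for Calr and Pdia3 (bold) and 30 ER folding factors and calcium-binding chaperones, ordered by the value with lactate. Filled points are called genes. With lactate 14 of the 30 are called and with vehicle 7, and Pdia3 (0.99) and Calr (0.84) lie among the called genes.

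Markers of other cell types moved in the same samples. The 12 microglial markers summed to 355 to 390 CPM in sham, 299 to 391 CPM in vehicle and 475 to 515 CPM in lactate mice. Against sham they did not move one way, since with lactate C1qa, C1qb and C1qc rose (log2 1.40, 1.25 and 1.05) while P2ry12 fell by 1.10. With lactate against vehicle 10 of the 11 tested lay above 0, with a median log2 difference of 0.40 beside -0.03 for all genes, and C1qa (0.97, SE 0.21, adjusted P = 0.362) and Cx3cr1 (0.63, SE 0.23, adjusted P = 0.514) were called higher and none lower. The C1qa call held without any one mouse, whereas that of Cx3cr1 was lost without vehicle mouse 3, vehicle mouse 4 or lactate mouse 3. Cx3cr1 had 819, 359 and 544 reads in sham, vehicle and lactate mice, and was called lower with vehicle than in sham mice (log2 -1.21, SE 0.23, adjusted P = 0.0201). The 11 endothelial markers summed to 200 to 220 CPM in sham, 264 to 304 CPM in vehicle and 309 to 353 CPM in lactate mice, with 2 called higher and 2 lower with lactate. That sum was carried by Slc2a1, a glucose transporter (1438, 3614 and 3965 reads in sham, vehicle and lactate mice), and Ly6c1 (2399, 3259 and 4268 reads), while Slco1a4, an organic anion transporter, fell from 963 to 450 and 292 reads. The median log2 fold change of the 11 with lactate was -0.29, with 5 above 0. Of 9 astrocyte markers 2 were called higher in both ischemic groups, Gjb6 and the intermediate filament gene Gfap, whose reads were 1672, 5534 and 9089. Gfap was also called higher with lactate than with vehicle (log2 0.80, SE 0.28, adjusted P = 0.496), without any one mouse as well. Of 7 oligodendrocyte markers 1 was called, Mog, a myelin protein, which was lower with lactate than in sham mice (log2 -0.60, SE 0.14, adjusted P = 0.0125) and than with vehicle (-0.66, SE 0.22, adjusted P = 0.496), each call lost in 2 of 8 fits with one mouse left out, and the former also with a replicate block, by limma voom, with Ensembl genes only and at a mean CPM of at least 5. The 6 blood markers, mostly globin genes, summed to 560 to 633 CPM in sham, 333 to 500.4 CPM in vehicle and 375 to 499 CPM in lactate mice, without overlap between sham and either ischemic group, and with lactate 4 of 5 tested had an adjusted P under 0.05, all lower. The 10 monocyte and macrophage markers summed to 12.8 to 17.8, 16.7 to 31.1 and 19.7 to 33.6 CPM, and 10 neutrophil markers to 3.68 to 7.91, 12.9 to 78.2 and 21.2 to 45.0 CPM, in sham, vehicle and lactate mice. The T and NK cell markers were at or near 0, with 2 of 13 at 0 in all mice and 10 of 13 never above 3 reads, and Cd4, the 1 of them tested, was called higher with lactate, in 3 of 8 fits with one mouse left out. None of 9 neuronal markers was called in any comparison. The part of these cell types in the levels of the class I genes was not tested. Vehicle mouse 2 stood apart in choroid plexus markers, at 2174 CPM against a vehicle median of 141 CPM, and the H2-D1 call with vehicle held without it.

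Across the 12 mice the members did not follow one pattern. On log2(CPM + 1) values the highest Pearson correlations between tested members were 0.81 for H2-K1 with Pdia3, 0.78 for H2-D1 with Calr and 0.71 for H2-D1 with H2-T23. Of 9566 known genes with a mean of at least 5 CPM, those most like B2m included Atxn7l1 (r = 0.91), Ppp6c (0.90), Rps12-ps3 (0.87) and Tspo (0.87). Tspo is a protein of the outer mitochondrial membrane. The 5 most like Calr were Sema4a (r = 0.95), Rimbp2 (0.94), Kcnip3 (0.93), Gdpd5 (0.93) and Camkk1 (0.92), none of which is among the folding factors. The mice share libraries, depth and groups in these values, so the correlations are a description.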

How the data were processed

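Whole-tissue brain RNA of 12 mice (4 sham, 4 vehicle, 4 lactate) was grouped by the sample labels. The authors sequenced PCR-amplified full-length cDNA on nanopores and removed short, low-quality and ribosomal reads. They mapped full-length reads with minimap2, built isoforms with pinfish, and compared transcripts with the known annotation in gffcompare. The deposited counts per gene are raw, and the deposited CPM values are the same counts divided by the total of each mouse. The submitters' processing notes name GRCm38 and DESeq 1.10.1, and the gene counter and annotation release are not given in the sources used here. The authors' own P values and log2 fold changes, also in the table, were not used. Total counts ranged from 6815920 to 10677224, and 4 lines without a gene were left out.

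Each pair of groups was fitted on counts with edgeR 4.0.16 (TMM scaling, quasi-likelihood test, at least 1 CPM in 4 of 8 mice) in R 4.3.3, and P values were adjusted over every tested gene by the Benjamini-Hochberg method. The limits of P and fold change follow the study's methods, which do not say whether the P value was the adjusted one, and were applied here to the unadjusted P value. The fit was tested on simulated data. The alternatives were DESeq2 1.42.0, limma 3.58.1 (voom), edgeR's exact test, another scaling, other filters and limits, a joint fit, a replicate block and leaving out each mouse. All 10 members are named with values in every mouse. For each list up to 5 called genes with the smallest P are named, and the 5 known genes most correlated with B2m and with Calr, though not every gene this rule names is reported here. Transcripts were aligned with Biopython 1.88 and positions taken from GENCODE M21. The members and lists were chosen with earlier results of these data known.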

Additional observations from a re-analysis of the deposited data

Results flagged for a closer look

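Of 30 groups of 4 mice (10 genes in 3 groups), 3 held a mouse whose distance to its nearest neighbour exceeded Dixon's 95% limit, as a share of the group's range. Chance alone flags about 1 group in 20. H2-K1 in lactate mouse 4 was at 45.5 CPM, with a gap of 0.870 of the range, and without this mouse the H2-K1 change with lactate fell under 1.5-fold. Tap1 in vehicle mouse 2 was at 0.259 CPM, from 2 reads. Nlrc5 in sham mouse 1 was at 0.791 CPM, from 6 reads.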

How the results depend on the processing

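H2-D1, Calr and Pdia3 with lactate against sham kept their direction and their call under every alternative run, and no level moved by more than its SD with TMM-scaled CPM. With vehicle against sham, the number of members called was 1 as given, and 0 with an adjusted P under 0.05 (with or without the fold limit). It was 3 with an unadjusted P under 0.05 at any fold, as held for 13.8% of all genes, and 0 to 1 with one mouse left out. With lactate against sham it was 4, then 7 with an unadjusted P under 0.05 at any fold (27.1% of all genes), and 3 to 5 with one mouse left out. Between lactate and vehicle it was 0, then 1 with genes that have an Ensembl identifier only (Pdia3). It was 1 with an unadjusted P under 0.05 at any fold (8.84% of all genes), and 0 to 2 with one mouse left out (2 without vehicle mouse 1). The sign of small values reversed for B2m with vehicle against sham (-0.0067 by limma voom, -0.02 without sham mouse 3, -0.12 without vehicle mouse 2), for Tap2 with lactate against sham (0.087 without sham mouse 3) and for Tapbp between lactate and vehicle (-0.088 without lactate mouse 3). The cause was not tested. With one mouse left out, these values ranged from -0.12 to 0.17 for B2m, from -0.38 to 0.09 for Tap2 and from -0.09 to 0.27 for Tapbp. Of the other log2 fold changes, 389 values were the same in direction and call.

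Over all genes, the calls higher and lower with vehicle against sham, 1107 and 513, were 714 and 330 with Ensembl genes only, 592 and 169 at a mean CPM of at least 5, and 219 and 31 with an adjusted P under 0.05, while 1996 were higher with no filter and 886 lower at any fold. With lactate against sham, 2047 and 976 became 880 and 638 with Ensembl genes only, 901 and 415 at a mean CPM of at least 5, 3502 and 1566 with no filter, and 1361 and 435 with an adjusted P under 0.05 and the fold limit. Between lactate and vehicle, 655 and 430 became 245 and 292 with Ensembl genes only (so that lower calls then outnumbered higher ones), 313 and 204 at a mean CPM of at least 5, 1013 and 729 with no filter, and 0 and 1 with an adjusted P under 0.05. Leaving out vehicle mouse 2 or lactate mouse 2 left 428 and 416 higher, and leaving out lactate mouse 1 left 281 lower.

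The deviations of mice with the same number correlated weakly (from -0.17 to 0.18), which neither shows a pairing nor excludes one. With a replicate block the number of members called was again 1, 4 and 0, the adjusted P of H2-T23 with lactate was 0.0598, and the higher and lower calls over all genes were 1060 and 507, 2064 and 1011, and 549 and 344. Of 8 mice, 4, 5 and 0 correlated best with their own number in these comparisons, so the comparisons differed and the counts do not settle the question. The depth does not resolve Tap1 and Nlrc5.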

Other observations

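Class II genes, the presentation pathway for peptides taken up from outside the cell, were also measured, among markers of dendritic cells. With lactate against sham 4 of 5 tested genes of that list were called higher and 1 lower (11.9% and 5.65% of all genes), and 3 of them had an adjusted P under 0.05, all higher. H2-Ab1 rose from 4.69 ± 2.07 to 11.6 ± 4.62 CPM (SD, n = 4; log2 1.32, SE 0.34, adjusted P = 0.0239), H2-Aa by 1.19 (SE 0.34, adjusted P = 0.0380) and Cd74, the invariant chain, by 1.31 (SE 0.27, adjusted P = 0.00821). H2-Eb1 rose by 0.71 (SE 0.30, adjusted P = 0.146) and Zbtb46, a transcription factor of dendritic cells, fell by 0.91 (SE 0.37, adjusted P = 0.132), calls lost in 5 and 3 of 8 fits with one mouse left out. With vehicle against sham 1 of 6 tested genes was called higher (6.50% of all genes), Cd74 (log2 1.13, SE 0.34, adjusted P = 0.164), and none lower (3.01%). The list summed to 9.78 to 14.2 CPM in sham, 8.80 to 25.3 CPM in vehicle and 18.9 to 32.1 CPM in lactate mice, and 4 of its 10 genes never exceeded 3 reads in any mouse.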
